A study of Mus musculus with 45 samples.

Results

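The type I interferon-stimulated genes described here are a list of 38 genes known to be induced when a cell senses interferon alpha or beta. For each gene the probe set that carries its symbol alone was used, and where there were several, the one with the highest mean over all 45 arrays. This left 36 of the 38 genes, out of 19752 genes measured. Isg15 shares its probe set with another symbol and Ifi44 had no probe set of its own, so neither has a value here. All 36 reached the level required for testing, a mean in at least 1 group at or above the median of all values (log2 intensity 7.57), which 11074 genes reached.

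The samples were muscle macrophages of male C57Bl6 mice, taken before or after injury with cardiotoxin, a snake venom toxin that destroys muscle fibres. DTR+ mice carried Foxp3.DTR, in which the Foxp3 promoter drives the receptor for diphtheria toxin (DT), so that the toxin removes regulatory T cells, and DTR- mice lacked it. Cells were Ly6g- CD11b+ F4-80+ and are divided by the sample titles into MHCII+ and MHCII- cells, and their RNA was profiled on Affymetrix arrays of the type Mouse Gene 1.0 ST. In the timed sets the DTR- mice carry the DT label as well, so both genotypes are labelled as given the toxin.

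The groups differed in more than day and genotype. At day 0 the mice were uninjured, DTR- and 10 weeks old, with 2 arrays for MHCII+ and 2 for MHCII- cells and no DT time in the labels. At day 1 the mice were 8 weeks old with DT for 24 h, and each of the 4 combinations of genotype and subset had 2 arrays. At day 4 the mice were DTR- and 8 weeks old with no DT time, with 2 arrays per subset. Day 7 was sampled in 3 sets. The set with DT for 24 h was of mice 8 weeks old, with 2 MHCII+ and 3 MHCII- arrays from DTR+ mice and 4 MHCII+ and 3 MHCII- arrays from DTR- mice. The set with DT for 8 h was of mice 12 weeks old, with 3 and 3 arrays from DTR+ mice and 3 and 4 from DTR- mice. The set whose labels give no DT time was of mice 10 weeks old and held MHCII+ cells alone, 2 arrays per genotype. Cells positive for SiglecF, an eosinophil marker, were gated out in the 8 h set and at days 1 and 4. The labels do not say from which moment the hours of DT count, whether arrays came from separate animals, or how many regulatory T cells were left. The p-values below measure the spread between these arrays, which may be in part technical.

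Type I interferons bind the receptor Ifnar1 and Ifnar2 on the cell surface, and the kinases Jak1 and Tyk2 then pass on the signal. Stat2 and Irf9 are part of a complex that binds the interferon-stimulated response element (ISRE) in promoters and switches on genes whose products sense viral nucleic acid, block viral translation and replication, and adjust the response itself. Interferon gamma acts through another receptor and the gamma-activated site (GAS) in promoters, and it raises a partly overlapping set of genes. Macrophages express both receptors, and some interferon-stimulated genes are expressed in them at rest.

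Promoters of 27 of the 38 listed genes were found in RefSeq windows of 300 bases on GRCm38.p6, from 250 bases before to 50 after the start. The core letters of the ISRE, GAAA, any 2 bases and GAAA again, or the same on the other strand as TTTC, any 2 bases and TTTC, were present in 13 of the 27 genes (48.1%) and in 1079 of 27025 genes (3.99%) with such a window. The GAS letters, TTCNNNGAA, which read the same on both strands, were present in 6 of the 27 (22.2%) and in 9.55% of all genes. These shares describe letters in a window and not binding. Where a gene had several windows, the one with the most matches was taken. The 160 bases before the start are printed below for 6 genes, the 3 IFIT genes and Rsad2, which passed the test from day 1 to day 4, and 2 OAS genes, which did not, with the ISRE letters in capitals.
Ifit1 (chr19:34640729-34640888, plus strand): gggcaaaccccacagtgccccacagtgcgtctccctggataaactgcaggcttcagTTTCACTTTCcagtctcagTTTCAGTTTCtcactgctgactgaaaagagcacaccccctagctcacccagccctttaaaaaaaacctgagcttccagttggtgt
Ifit3 (chr19:34583369-34583528, plus strand): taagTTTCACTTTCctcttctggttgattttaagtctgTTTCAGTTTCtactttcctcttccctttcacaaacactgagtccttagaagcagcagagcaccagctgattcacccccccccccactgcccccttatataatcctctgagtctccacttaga
Ifit2 (chr19:34550534-34550693, plus strand): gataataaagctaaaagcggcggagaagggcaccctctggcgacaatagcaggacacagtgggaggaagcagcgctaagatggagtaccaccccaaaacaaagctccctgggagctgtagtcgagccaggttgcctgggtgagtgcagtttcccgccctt
Rsad2 (chr12:26456453-26456612, minus strand): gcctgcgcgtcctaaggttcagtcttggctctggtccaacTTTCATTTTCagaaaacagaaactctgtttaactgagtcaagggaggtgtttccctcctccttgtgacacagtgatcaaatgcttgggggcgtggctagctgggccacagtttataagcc
Oas1a (chr5:120907526-120907685, minus strand): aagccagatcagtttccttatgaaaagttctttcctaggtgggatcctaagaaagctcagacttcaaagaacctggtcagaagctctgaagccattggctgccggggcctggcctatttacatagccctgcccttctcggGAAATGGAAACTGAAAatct
Oas3 (chr5:120777660-120777819, minus strand): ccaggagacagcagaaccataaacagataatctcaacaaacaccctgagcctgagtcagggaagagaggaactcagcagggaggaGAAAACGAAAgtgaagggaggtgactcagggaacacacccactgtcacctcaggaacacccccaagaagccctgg
The stretches of Ifit1 and Ifit3 hold 2 matches each. Those of Ifit1 begin 104 and 85 bases before the start, and those of Ifit3 begin 156 and 122 bases before it. Rsad2 has 1 match beginning 120 bases before the start and Oas3 has 1 beginning 75 bases before it. Oas1a has 2 that overlap, beginning 20 and 14 bases before the start. The stretch of Ifit2 has 0 matches to these letters. Several members are neighbours in the RefSeq annotation of that build: Rsad2 and Cmpk2 on chromosome 12, Parp14, Dtx3l and Parp9 on chromosome 16, Ifit2 and Ifit3 on chromosome 19, and on chromosome 5 Oasl2 and Oasl1, and Oas2 and Oas3, have 0 protein-coding genes between them.

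The arrays carried macrophage RNA in all groups: the mean of 8 macrophage markers lay between log2 12.22 and 12.76 on all 45 arrays. MHC class II genes averaged 13.51 to 13.88 on arrays titled MHCII+ and 8.58 to 12.43 on those titled MHCII-, whereas a separate marker entry reads MHCII- for nearly all samples, so the titles were used. The genotype has no check on these arrays. Natural killer markers had 0 of 6 genes above the filter, and plasmacytoid dendritic cell markers, of cells that make much interferon, averaged 7.43 to 8.20 with 3 of 9 listed genes above it. A few arrays stood apart in markers of other cells. Replicate 1 of the 8 h DTR+ MHCII+ group had a T cell marker mean of 9.80 against 7.50 and 7.41 in the other replicates. Replicate 1 of the day 0 MHCII- group had a neutrophil mean of 10.48 against 7.76 in replicate 2. Replicate 3 of the 24 h DTR- MHCII+ group and replicate 3 of the 24 h DTR+ MHCII- group had macrophage means of 12.32. The 2 day 0 MHCII+ arrays (12.22 and 12.33) and 1 array of the 8 h DTR+ MHCII+ group (12.27) were also low. In bulk samples, fewer cells of a type and less RNA per cell cannot be told apart.

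The interferon-stimulated genes were bright in these macrophages. The member with the highest mean was Trim30a, a regulator of Toll-like receptor signalling, at log2 12.12 (11.50 to 12.61 over arrays), and the lowest was Mx2, a GTPase that blocks viruses, at 7.60 (6.61 to 8.95); probe sets differ in their response, so these 2 levels do not rank the transcripts. The difference between a member's highest and lowest group mean ran from 0.59 for Adar, the RNA editing enzyme, to 3.42 for Ifit2, with a median of 1.32. Ifit3 (2.49), Ifit1 (2.15), Cmpk2 (1.96) and Ifi205 (1.93) also spanned wide ranges, while Irf9 (0.61) and Trim25 (0.63) moved little.

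**Figure D1:**
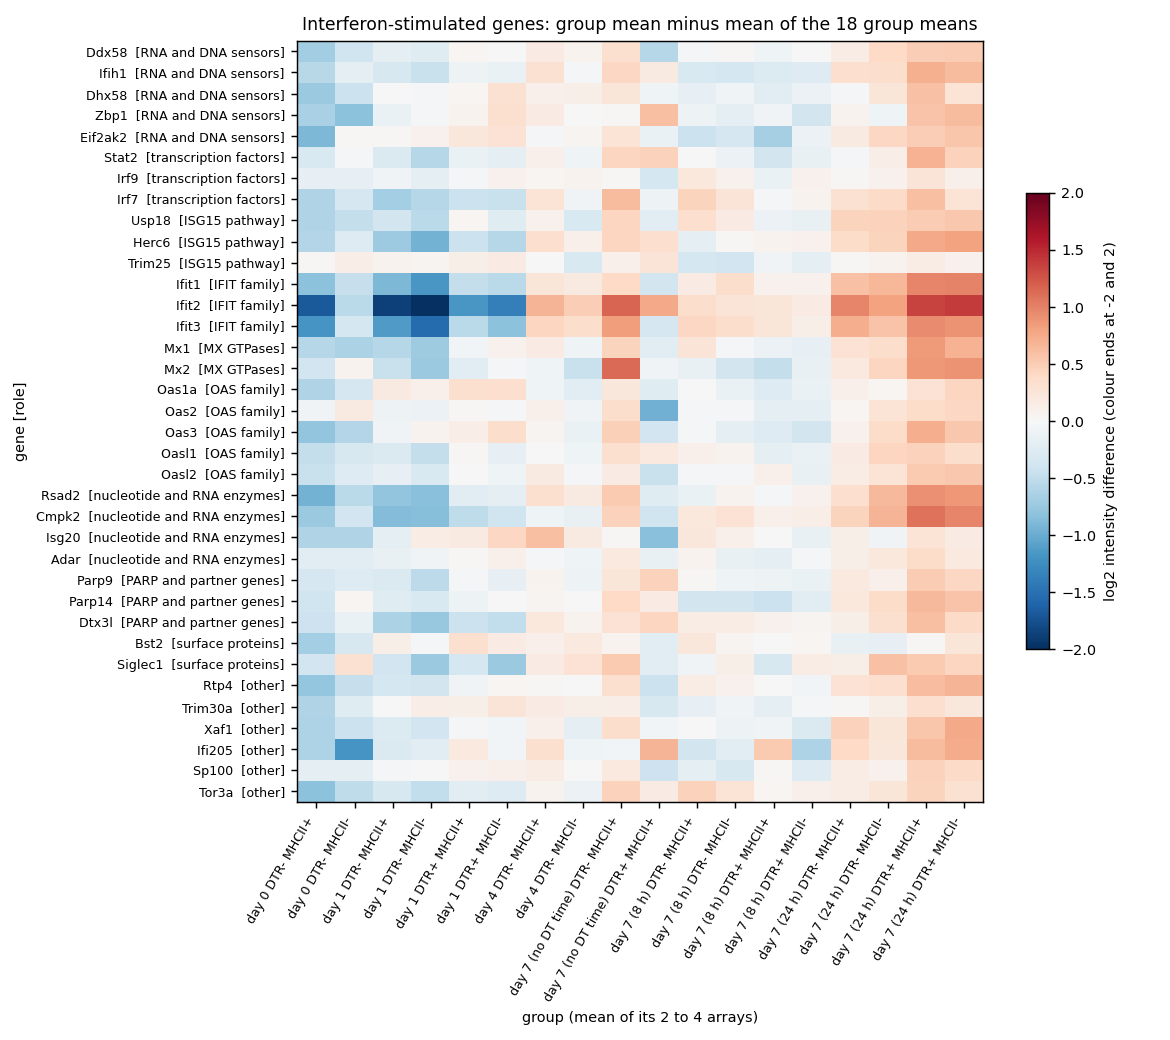
Each row is 1 member and each column 1 of the 18 groups, and the colour gives the group's mean log2 intensity minus the member's mean over groups. The 24 h day 7 DTR+ columns hold the highest mean of 16 members (MHCII+) and 13 members (MHCII-), and the day 0 MHCII+ column holds the lowest mean of 14.

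A score for each array was the median over the 36 members of the array's deviation from the member's mean over groups. The score was highest in the 24 h day 7 DTR+ groups, at 0.64 ± 0.006 (SD, n = 2) for MHCII+ and 0.50 ± 0.16 (SD, n = 3) for MHCII- cells. Next came the DTR- group with no DT time at 0.32 ± 0.066 (SD, n = 2), then the 24 h DTR- groups at 0.31 ± 0.16 (SD, n = 3, MHCII-) and 0.19 ± 0.16 (SD, n = 4, MHCII+); the arrays of these 3 groups overlapped one another. Day 4 MHCII+ cells stood at 0.11 ± 0.083 (SD, n = 2). The 4 groups of the 8 h set lay between -0.11 and 0.02, and day 4 MHCII- cells at -0.01 and the 2 day 1 DTR+ groups at -0.02 and -0.05 lay among them. The lower end held the DTR+ group with no DT time (-0.15 ± 0.009, SD, n = 2), the day 1 DTR- groups (-0.27 and -0.38) and the day 0 groups (-0.28 MHCII-, -0.57 MHCII+). The 2 day 0 MHCII- arrays were at 0.18 and -0.74, so that group spanned most of the order. The score is a description of the list and was not tested.

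**Figure D2:**
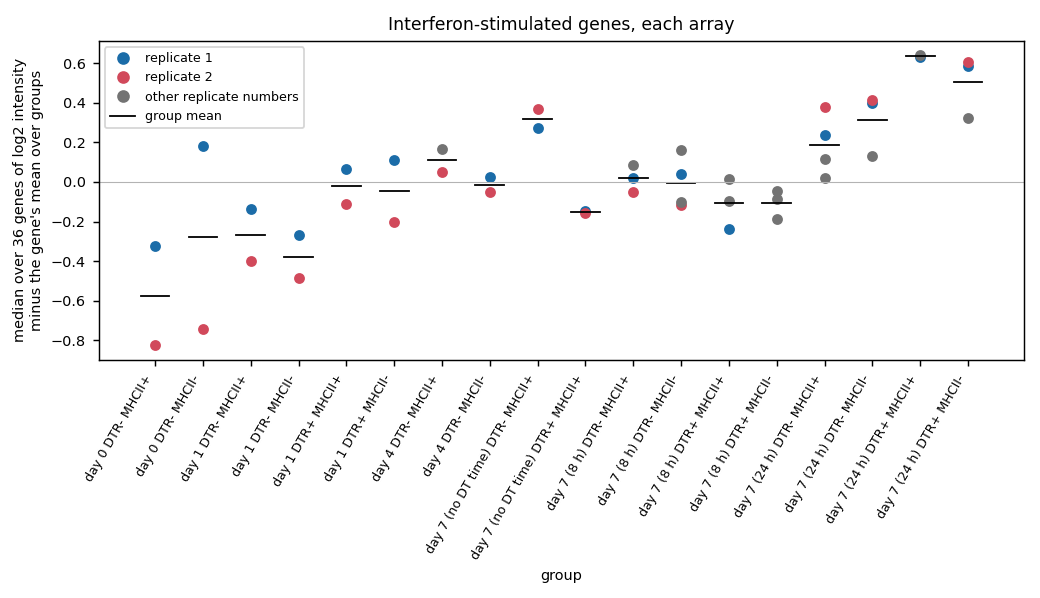
Points are the 45 arrays in their 18 groups and the vertical axis is the member score, the median deviation in log2 intensity over 36 members; lines mark group means and colours replicate numbers. The 24 h DTR+ MHCII+ arrays sit at 0.63 and 0.64, and the day 0 MHCII- arrays at 0.18 and -0.74.

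Most members followed the same order of groups. The correlation of a member's 18 group means with the median of the others had a median of 0.80 over members, was over 0.5 for 34 of 36 and over 0.8 for 18. Rsad2 had the highest value (0.96) and Trim25 the lowest (0.08). Among the 11038 tested genes outside the list, the correlation with the member median had a median of 0.01 and was over 0.8 for 21. Over arrays within groups, the members' deviations also moved together (median correlation 0.76), with Trim25 at -0.27. These deviations were widest at day 0, where the members' residual SD was 0.50 against 0.07 to 0.22 in the other sets. No such correlation is given here for genes outside the list. The 8 genes outside the list with the highest correlation over group means were Ifi213 (0.95), Parp12 (0.95), Slfn8 (0.94), H2-T24 (0.92), Zup1 (0.90), Slfn9 (0.89), Nt5c3 (0.86) and Frmd4a (0.86). These correlations are over 18 means whose groups differ in set, age and gate, and describe likeness alone.

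Irf7, which amplifies interferon production, was at log2 10.06 and 11.12 in the 2 day 0 MHCII+ arrays and at 9.95 and 11.75 in the 2 day 0 MHCII- arrays. At day 1 the 4 DTR- arrays read 10.39 to 10.71 and the 4 DTR+ arrays 10.49 to 11.04, and at day 4 the 4 arrays read 11.10 to 11.53. In the 24 h set Irf7 lay between 10.99 and 11.84 over 12 arrays and in the 8 h set between 10.48 and 11.76 over 13. With no DT time it read 10.93 and 11.24 in DTR+ and 11.79 and 11.85 in DTR- cells. All day 1 arrays thus lay below all day 4 arrays, and the day 0 arrays spread over nearly the whole range. Stat2, a subunit of the ISRE-binding complex, varied less, from 9.39 to 10.94. Its highest arrays were in the 24 h DTR+ groups (10.61 and 10.94 MHCII+; 10.88, 10.69 and 10.06 MHCII-) and in the set with no DT time (10.50 to 10.56 over both genotypes).

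Effector genes gave wider ranges. Ifit1, which binds viral RNA that lacks the host cap mark, read 8.83 to 9.57 in the 4 day 1 DTR- arrays, 9.39 to 9.92 in the 4 day 1 DTR+ arrays and 10.33 to 10.54 at day 4. It read 11.24 and 11.08 in the 24 h DTR+ MHCII+ arrays, 11.10, 11.27 and 11.17 in the 24 h DTR+ MHCII- arrays, 10.40 to 11.06 in the 24 h DTR- arrays and 10.01 to 10.79 in the 8 h set. With no DT time it read 9.72 and 9.92 in DTR+ and 10.40 and 10.76 in DTR- cells. Rsad2, or viperin, a radical enzyme that makes a chain-terminating nucleotide, ordered the groups alike: 9.81 to 10.43 in day 1 DTR- arrays, 11.10 to 11.31 at day 4, 11.70 to 11.91 in 24 h DTR+ arrays, 11.13 to 11.66 in 24 h DTR- arrays and 10.62 to 11.51 in the 8 h set. For both genes all 5 24 h DTR+ arrays lay above all 7 24 h DTR- arrays.

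The remaining core members had narrower ranges. Usp18, which removes Isg15 from proteins and dampens receptor signalling, ran from 9.54 in a day 0 MHCII- array to 11.40 in a 24 h DTR+ MHCII- array, and the genotypes overlapped in the 24 h set. Siglec1, a sialic acid receptor of macrophages, ran from 10.44 in a day 1 DTR+ MHCII- array to 12.10 in a 24 h DTR+ MHCII+ array. Ddx58, the RNA sensor RIG-I, ran from 10.08 at day 0 to 11.56 in a 24 h DTR+ MHCII- array, and its arrays in the set with no DT time were 10.38 and 10.41 in DTR+ mice and 11.26 and 11.32 in DTR- mice.

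The day 0 replicates were far apart for these genes. In both subsets replicate 1 was above replicate 2 in 35 of 36 members, with a median gap of 0.40 log2 in MHCII+ and 0.89 in MHCII- cells; over all 11074 genes the median gaps were 0.01 and -0.03. The gap was over 1 log2 for 15 members in MHCII- cells, against 0.632% of all genes. Ifi205, of the Ifi200 family of DNA-binding proteins, read 11.35 and 8.63, the widest gap at 2.71, and Ifit2 read 10.29 and 7.75. The residual SD of the members at day 0 was 0.50, against 0.12 over all genes. A smaller gap of the same sign ran through day 1, where replicate 1 was the higher in 35, 36, 33 and 32 of 36 members of the 4 groups, with medians of 0.18 to 0.31. The neutrophil marker mean of the day 0 MHCII- replicates differed in the same direction (10.48 and 7.76), and its part in the gap was not tested.

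**Figure D3:**
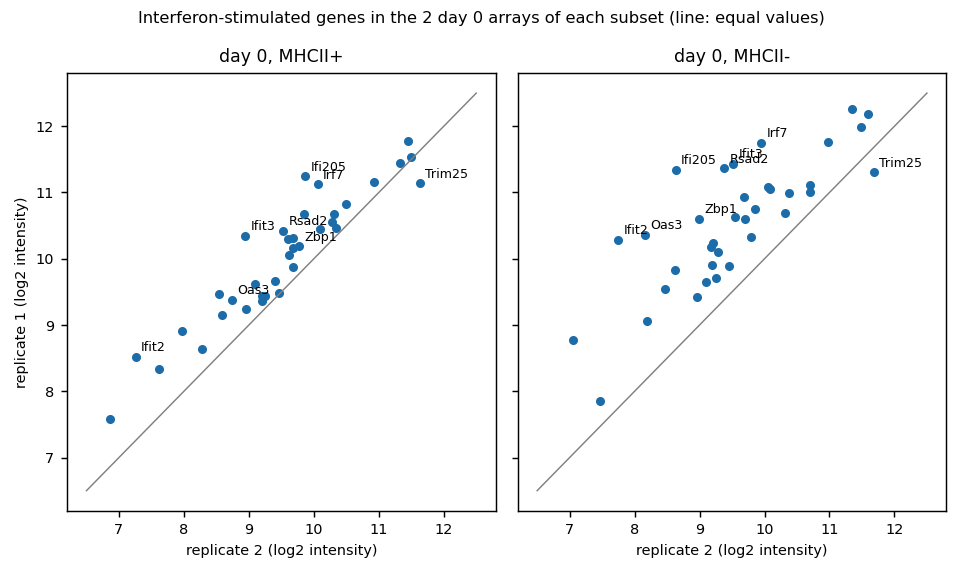
Each point is 1 member, with replicate 2 on the horizontal axis and replicate 1 on the vertical axis in log2 intensity, for day 0 MHCII+ and MHCII- cells, and the line marks equal values. In both subsets 35 of 36 points lie above the line.

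Day 1 against day 0 in DTR- cells asks what changed in the first day of injury, and the members did not move as a block. The day 1 mice also were 2 weeks younger, had DT for 24 h and were gated against SiglecF, which cannot be told apart from the day. In MHCII+ cells 6 of 36 members rose and 0 fell, where 18.6% of all tested genes rose and 17.0% fell. The members thus did not rise more often than genes at large, and the member median was 0.15 log2 (all genes -0.01). That median was -0.06 without day 0 replicate 2, 0.45 without day 0 replicate 1, 0.04 without day 1 replicate 1 and 0.31 without day 1 replicate 2. The 6 are RNA sensors, antiviral effectors and Trim30a. Trim30a read 11.54 and 11.50 at day 0 and 12.21 and 12.03 at day 1, a rise of 0.60 ± 0.12 (SE; limma, adjusted p = 0.00022). Bst2, or tetherin, which holds budding virus at the cell surface, read 9.43 and 9.20 and then 10.07 and 10.16, a rise of 0.80 ± 0.17 (adjusted p = 0.00049). Both genes had groups that did not overlap, as was so for 12 of the 36 members and for 75.4% of all tested genes. Oas1a, which makes the messenger 2-5A when it binds double-stranded RNA, rose by 0.79 ± 0.17 (adjusted p = 0.00065). Eif2ak2, the kinase PKR, rose by 0.92 ± 0.24 (adjusted p = 0.0038), and the RNA sensors Ddx58 (0.52, adjusted p = 0.017) and Dhx58 (0.74, adjusted p = 0.022) rose too. Ifit2 was low at both times, at 8.52 and 7.26 at day 0 and 8.03 and 7.38 at day 1. Fewer members passed when day 0 replicate 2 or day 1 replicate 1 was left out.

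In MHCII- cells 6 of 36 members fell from day 0 to day 1 and 2 rose, where 16.2% of all genes fell and 9.4% rose. The members fell about as often as genes at large and did not rise more often, and the member median was -0.07 (all genes -0.04). Siglec1 read 11.99 and 11.49 at day 0 and 10.51 and 10.86 at day 1 and fell by 1.05 ± 0.22 (limma, adjusted p = 0.00037). Herc6, the main ligase that attaches Isg15 in mice, fell by 0.69 (adjusted p = 0.0084), and Dtx3l, a ubiquitin ligase that partners Parp9, by 0.62 (adjusted p = 0.0097). Ifit2 fell by 1.47 ± 0.46 (adjusted p = 0.015), Ifit3 fell by 1.19 ± 0.38 (adjusted p = 0.018) and Stat2 by 0.55 (adjusted p = 0.041). Trim30a rose by 0.37 (adjusted p = 0.021) and Zbp1, a sensor of Z-form nucleic acid, by 0.79 ± 0.27 (adjusted p = 0.026). These calls rest on the day 0 arrays described above. Without day 0 replicate 2 more members passed, all of them lower, and the member median was -0.50. Without day 0 replicate 1 the median was 0.40. Fewer members passed when day 1 replicate 1 or day 1 replicate 2 was left out. The inflammatory monocyte marker mean also differed between the days, with 5 of 5 tested markers higher at day 1 in MHCII- cells and 3 of 5 in MHCII+ cells. Conventional dendritic cell markers were lower at day 1 in 5 of 5 in MHCII+ cells (median -0.99) and in 2 of 5 in MHCII- cells, and plasmacytoid dendritic cell markers in 2 of 3 in both. In MHCII- cells 9 of 10 neutrophil markers and 4 of 4 MHC class II genes were lower too. The part of these cells in the change was not tested.

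From day 1 to day 4 the IFIT genes rose in both subsets. Age and gate were the same, but the day 1 mice had DT for 24 h and day 4 has no DT time, which cannot be told apart from the day. In DTR- MHCII+ cells 8 of 36 members rose and 0 fell, where 7.77% of all tested genes rose and 7.61% fell. The member median was 0.37 (all genes -0.01) and 32 members were above 0, as were 49.1% of all genes. In MHCII- cells 7 rose and 0 fell, where 16.9% of all genes rose and 7.31% fell. The share of members that rose there was thus near that of all genes, and the median was 0.29 (all genes 0.05). The 2 lists shared 6 genes, which is 6 of 8 and 6 of 7: Dtx3l, Herc6, Ifit1, Ifit2, Ifit3 and Rsad2. They came from different arrays, but the labels do not say whether the 2 subsets came from the same animals. Over all genes 861 and 1870 rose, and how many of these were shared was not counted.

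The 3 IFIT genes, whose products bind foreign RNA and block its translation, changed most. Ifit2 read 8.03 and 7.38 at day 1 and 10.08 and 10.43 at day 4 in MHCII+ cells, a rise of 2.55 ± 0.46 (SE; limma, adjusted p = 0.00016). In MHCII- cells it read 7.74 and 7.37 and then 10.03 and 10.08, a rise of 2.50 (adjusted p = 8.5e-05). All day 4 arrays lay above all day 1 arrays. Ifit3 read 9.94 and 9.45 and then 11.31 and 11.19 in MHCII+ cells (1.56 ± 0.38, adjusted p = 0.004), and 9.33 and 9.24 and then 11.12 and 11.21 in MHCII- cells (1.88 ± 0.38, adjusted p = 0.00031). Ifit1 rose by 1.15 ± 0.26 (adjusted p = 0.0024) and 1.35 (adjusted p = 0.00022). The printed stretch of Ifit2 has 0 matches to the exact ISRE letters in the 160 bases before 1 annotated start. A link between these letters and the rise was not tested.

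Herc6 followed, reading 9.41 and 9.01 at day 1 and 10.42 and 10.12 at day 4 in MHCII+ cells (1.06 ± 0.20, adjusted p = 0.00023), with a rise of 1.05 (adjusted p = 0.00011) in MHCII- cells. Dtx3l rose by 0.85 ± 0.18 (adjusted p = 0.001) and 0.82 (adjusted p = 0.00084). Rsad2 rose by 1.12 ± 0.36 (adjusted p = 0.029) and 1.02 (adjusted p = 0.035). The passing genes outside the shared 6 were the RNA sensor Ifih1 (0.62 ± 0.19, adjusted p = 0.025) and Cmpk2, a mitochondrial nucleotide kinase (0.78 ± 0.27, adjusted p = 0.042), in MHCII+ cells, and Siglec1 (1.03 ± 0.22, adjusted p = 0.00051) in MHCII- cells. By contrast 0 of the 5 OAS genes passed in either subset, with medians of 0.20 and 0.04.

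Limits apply to the MHCII+ count. Fewer members, and fewer of all tested genes, passed without day 1 replicate 2, without day 4 replicate 2 or without day 4 replicate 3. The member median was then 0.24, 0.48 and 0.30. In MHCII- cells fewer than 7 members passed with any 1 array left out, and the median lay between 0.24 and 0.38. The inflammatory monocyte marker mean was 11.03 to 12.07 at day 1 and 9.68 to 10.59 at day 4, and the T cell mean 6.69 to 7.00 and 7.17 to 7.63, and their part in the change was not tested.

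**Figure D4:**
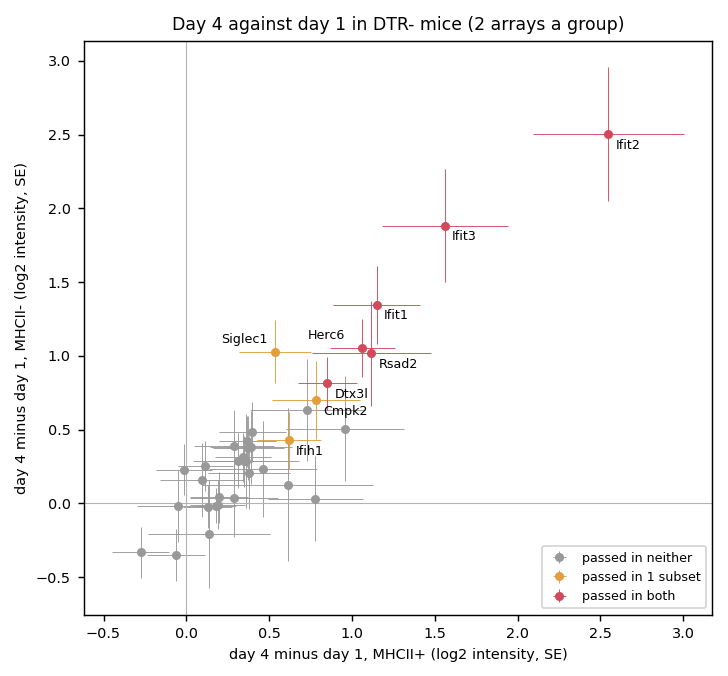
Each point is 1 of 36 members, with its log2 change from day 1 to day 4 in DTR- MHCII+ cells on the horizontal axis and in DTR- MHCII- cells on the vertical axis, with bars of 1 SE. Ifit2 lies farthest out at 2.55 and 2.50, and the named genes are those that passed in at least 1 subset.

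Between day 4 and day 7 of the 24 h set, 0 of 36 members passed in limma in either subset of DTR- cells, where 2.46% (MHCII+) and 1.17% (MHCII-) of all genes passed. The age was the same, but the day 7 mice had DT for 24 h and a gate that did not leave out SiglecF+ cells, so day and these cannot be told apart. In MHCII+ cells the member median was 0.03, with 1 member at an unadjusted p under 0.05, as were 15.4% of all genes; the smallest p-values were those of Cmpk2 (0.54, adjusted p = 0.23), Isg20, an RNA exonuclease (-0.47), and Bst2 (-0.26). In MHCII- cells the median was 0.33 (all genes 0.03), with 33 members above 0, as were 56.5% of all genes. The unadjusted p was under 0.05 for 11 members and for 12.3% of all genes. Cmpk2 (0.83, adjusted p = 0.091), Mx2 (0.89, adjusted p = 0.15) and Usp18 (0.76, adjusted p = 0.25) had the smallest p-values there.

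Day 7 with no DT time against day 0 gave the broadest rise, in DTR- MHCII+ cells of the same age. The labels give no DT time for either group, so a difference in toxin cannot be told apart from the day. Of 36 members 29 rose and 0 fell, where 10.4% of all tested genes rose and 8.72% fell. The median was 0.94 (all genes 0.01) and all 36 were above 0, as were 51.6% of all genes. The rise took in all 3 IFIT genes, both MX GTPases, all 3 of the PARP group, both surface proteins, 4 of 5 OAS genes, 4 of 5 nucleic acid sensors, 2 of 3 transcription factors, 2 of 3 of the Isg15 pathway, 3 of 4 nucleotide and RNA enzymes and 4 of 6 others. Ifit2 read 8.52 and 7.26 at day 0 and 10.62 and 10.84 at day 7, a rise of 2.84 ± 0.46 (SE; limma, adjusted p = 1.8e-05). Ifit3 read 10.35 and 8.94 and then 11.56 and 11.76, a rise of 2.01 ± 0.38 (adjusted p = 0.00017). Mx2 read 7.57 and 6.86 and then 8.66 and 8.78, a rise of 1.51 ± 0.32 (adjusted p = 0.00073), and Rsad2 rose by 1.46 ± 0.36 (adjusted p = 0.0031). In these 4 genes both day 7 arrays lay above both day 0 arrays. Groups did not overlap for 33 of 36 members and for 71.1% of all tested genes. Fewer members passed without day 0 replicate 2, with a median of 0.68, and without day 7 replicate 2, with a median of 0.86. Markers of other cells differed between the same arrays. Conventional dendritic cell markers had a mean of 8.69 to 8.90 at day 0 and 7.51 to 7.54 at day 7, with 4 of 5 lower. Skeletal muscle markers had a mean of 7.78 to 8.25 and then 8.90 to 9.12, with 4 of 5 higher, and 4 of 8 macrophage markers were higher, with a median of 0.34. Their part in the rise was not tested.

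The comparison of genotypes asks what differs in macrophages of mice whose regulatory T cells can be removed. In MHCII+ cells of the day 7 set with no DT time 11 of 36 members were lower in DTR+ mice, 0 were higher and 25 did not pass, where 6.2% of all tested genes were lower and 5.32% higher, and the member median was -0.43 (all genes -0.01). The count rests on 2 arrays per genotype: most of the 11 did not pass when any 1 of the 4 arrays was left out. Fewer of all tested genes passed then too, and the member median lay between -0.49 and -0.41. This comparison shares its DTR- arrays with that against day 0 above.

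Oas2, which makes 2-5A, read 9.79 and 9.77 in DTR+ and 11.10 and 11.07 in DTR- cells and was lower by -1.30 ± 0.17 (SE; limma, adjusted p = 1.2e-06). Mx2 read 7.59 and 7.45 against 8.66 and 8.78 (-1.21 ± 0.32, adjusted p = 0.0096). Ifit3 read 10.45 and 10.53 against 11.56 and 11.76 (-1.17 ± 0.38, adjusted p = 0.039). In these genes the arrays of a genotype lay close together and the genotypes far apart. The genotypes did not overlap for 36 of 36 members and for 69.7% of all tested genes. Ddx58, with the values given above, was lower by -0.90 ± 0.17 (adjusted p = 0.00026). The other 7 that passed were Isg20 (-0.87), Cmpk2 (-0.86), Rtp4 (-0.76), Siglec1 (-0.74), Sp100 (-0.61), Oasl2 (-0.61) and Trim30a (-0.45). Those that missed the threshold included Ifit1 (-0.76, adjusted p = 0.056), Rsad2 (-0.75, adjusted p = 0.20), Irf7 (-0.74, adjusted p = 0.21) and Usp18 (-0.66, adjusted p = 0.23).

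A few members did not share that direction. Stat2 read 10.54 and 10.56 in DTR+ and 10.50 and 10.53 in DTR- cells, a difference of 0.04 (adjusted p = 0.96). Ifi205 (0.74 ± 0.52, adjusted p = 0.46), Zbp1 (0.58 ± 0.27, adjusted p = 0.18), Parp9 (0.22), Dtx3l (0.15) and Trim25 (0.15) were above 0 and did not pass; these 5 were named after their values were seen. Zbp1 read 11.30 and 11.16 against 10.60 and 10.70.

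In the same arrays the GBP and IRG GTPases, which attack vacuoles of pathogens and are strongly raised by interferon gamma, went the other way. All 9 of 9 measured were higher in DTR+ cells, with a median of 2.40. Gbp2b was higher by 4.83 ± 0.25 (limma, adjusted p = 2.8e-16), Gbp4 by 4.35 and Gbp8 by 3.02. Socs1, a feedback inhibitor of Jak kinases, was higher by 1.55 ± 0.13 (adjusted p = 6.6e-11), while Tlr7, an endosomal RNA receptor, was lower by -1.45 ± 0.15 (adjusted p = 9.2e-09), the latter named after its value was seen. Of the other lists, 0 of 2 interferon ligands above the filter passed and 2 of 9 receptor and kinase genes were higher. Of 18 genes that induce interferon 1 was higher and 2 were lower. Over all tested genes 5.32% were higher and 6.2% lower.

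The same arrays differed in markers of other cells. The inflammatory monocyte mean was 11.10 and 10.69 in DTR+ and 8.36 and 8.48 in DTR- cells, with 3 of 5 markers passing, and the skeletal muscle mean 8.16 and 8.35 against 9.12 and 8.90, with 5 of 5 lower. The T cell mean was 6.75 and 6.62 against 7.63 and 7.46, and the macrophage mean 12.55 and 12.60 against 12.74 and 12.73. Their part in the difference was not tested. With a spread estimated from these 4 arrays alone the count was 30, of which 28 were lower and 2 higher, where 35.4% of all genes passed. With array weights it was 24, of which 23 were lower and 1 higher, where 40.3% of all genes passed.

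**Figure D5:**
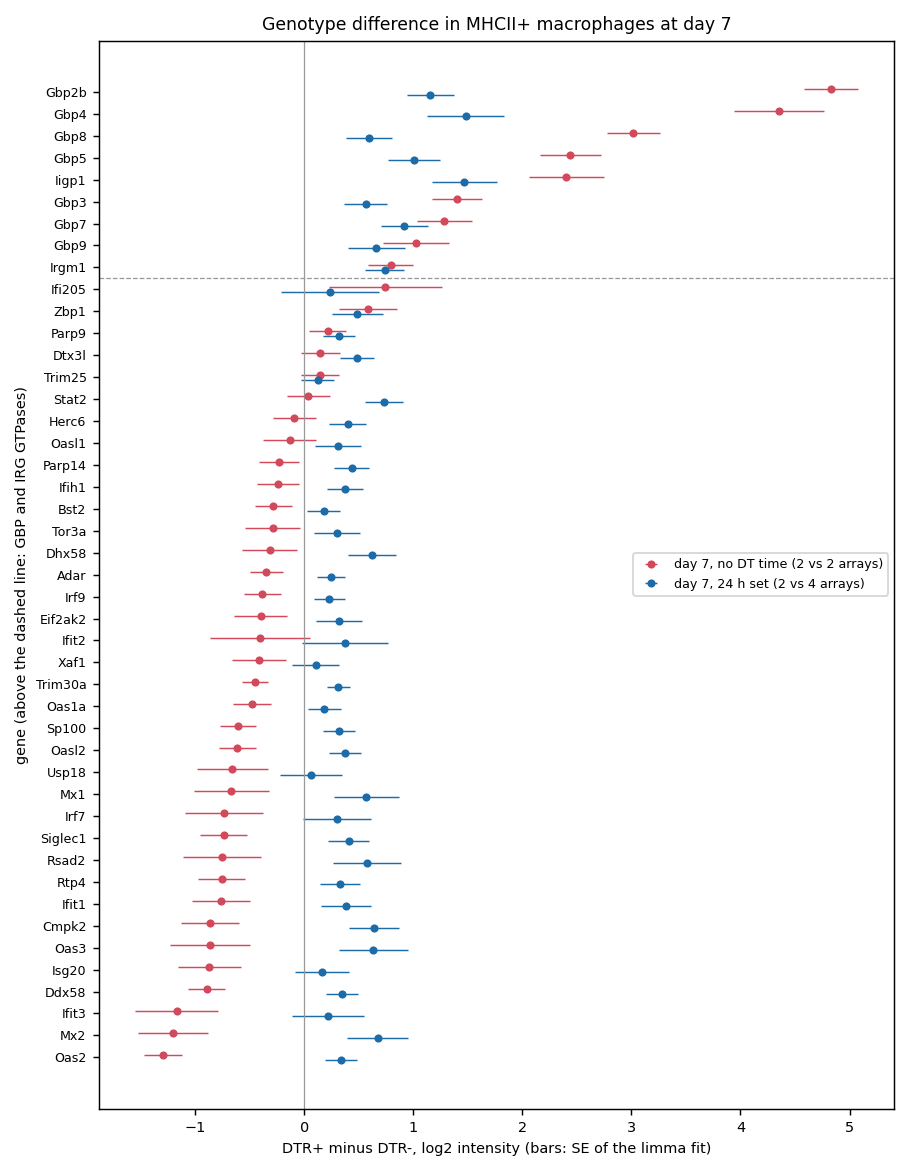
Rows are the 36 members and, above the dashed line, 9 GBP and IRG genes, and the axis is the DTR+ minus DTR- difference in log2 intensity (bars, 1 SE) in day 7 MHCII+ cells with no DT time (red) and with DT for 24 h (blue). Red points of 30 members lie left of 0, down to -1.30 for Oas2, while all 36 blue points of members and all 9 red points of the GBP and IRG genes lie right of 0. Over all tested genes 48.3% were above 0 with no DT time and 59.4% with DT for 24 h.

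At 24 h of DT nearly all DTR+ minus DTR- differences were above 0, but 0 of 36 members passed in limma in either subset. In MHCII+ cells, where 0.0542% of all tested genes passed, all 36 differences were above 0 with a median of 0.33, against a median of 0.04 and 59.4% above 0 over all genes; 16 had an unadjusted p under 0.05, as did 6.47% of all genes. Stat2 read 10.61 and 10.94 in DTR+ cells and 10.06, 10.32, 9.77 and 10.03 in DTR- cells, and its difference of 0.73 ± 0.17 was the closest to the threshold (adjusted p = 0.14), followed by Dtx3l (0.48, adjusted p = 0.71) and Trim30a (0.31, adjusted p = 0.74). The Stat2 arrays of the 2 genotypes did not overlap, as was so for 19 of the 36 members and for 7.23% of all tested genes. Outside the list Gbp2b (1.16 ± 0.22, adjusted p = 0.023), Socs1 (0.56 ± 0.11, adjusted p = 0.045) and Iigp1 (1.47 ± 0.30, adjusted p = 0.045) were higher. Without DTR- replicate 3 the member median was 0.29.

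In 24 h MHCII- cells, where 0.00903% of all genes passed, 32 of 36 members and 40.2% of all genes were above 0. The member median was 0.25 (all genes -0.04), and 7 members had an unadjusted p under 0.05, as did 6.47% of all genes. Zbp1 read 11.12, 11.25 and 11.40 in DTR+ and 10.58, 10.55 and 10.49 in DTR- cells, a difference of 0.72 ± 0.22 (limma, adjusted p = 0.72). Its genotypes did not overlap, as was so for 14 of the 36 members and for 10.6% of all tested genes. Bst2 (0.41) and Oas1a (0.39) had the next smallest p-values, while the difference of Ifit2 was 0.60 ± 0.37 with overlapping arrays. DTR+ replicate 3 was the low array of its group for most core members, with Irf7 at 10.99 against 11.67 and 11.74. Without it the member median was 0.28. DTR- replicate 3 had the lowest score of its group (0.13 against 0.40 and 0.41), and without it the median was 0.17. With any other array left out the median lay between 0.215 and 0.274. With array weights 16 members passed in MHCII- cells, all 16 higher, where 37.5% of all genes passed. The estimate of those weights stopped before it reached its convergence tolerance, so the counts with array weights are uncertain. In a fit without the 4 day 0 arrays, an alternative added after seeing the data, 1 member passed and was higher, where 0.0361% of all genes passed.

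At 8 h of DT the member medians were below 0 in both subsets. In MHCII+ cells 0 of 36 members passed in limma, where 0.488% of all genes did. The unadjusted p was under 0.05 for 5 members and for 18.5% of all genes. Of the members 8 were above 0, as were 43.9% of all genes, and the median was -0.13 (all genes -0.04). The smallest p-values were those of Irf9 (-0.35 ± 0.14, adjusted p = 0.18), Stat2 (-0.38, adjusted p = 0.22) and Adar (-0.26, adjusted p = 0.25). Ifi205, named after its values were seen, had a mean of 11.71 in DTR+ and 10.80 in DTR- cells, a difference of 0.90 ± 0.42 (adjusted p = 0.25), and its arrays overlapped. Ptpn2, a phosphatase of Jak and Stat proteins, was higher by 0.53 (adjusted p = 0.016). DTR+ replicate 1, the array with the high T cell mean, was the lowest of its group for Irf7, at 10.48 against 11.66 and 11.36. It was the highest for Ifi205, at 12.48 against 11.04 and 11.60. Without that array the member median was -0.10. Without DTR+ replicate 3, 1 member passed, Irf9, where 778 of 11074 genes passed. In MHCII- cells 0 members passed, where 0.0181% of all genes did, and 0 had an unadjusted p under 0.05, as did 4.39% of all genes. The median was -0.07, and leaving out DTR- replicate 3 gave 0.008 while leaving out DTR+ replicate 5 gave -0.01. With array weights 8 members passed there, 5 higher and 3 lower, where 34.1% of all genes passed. Trim25 (0.21), Ifit1 (-0.26) and Usp18 (-0.31) had the smallest p-values, all with an adjusted p of 1.0.

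At day 1, with DT for 24 h, nearly all members were above 0 in DTR+ cells and 0 of 36 passed in limma, where 0% of all tested genes passed. In MHCII+ cells all 36 were above 0, as were 46.8% of all genes, with a median of 0.21 (all genes -0.01). The unadjusted p was under 0.05 for 0 members and for 0.226% of all genes. The smallest p-values were those of Ifit1 (0.42), Rsad2 (0.57) and Ifit3 (0.59). With 1 array dropped the median moved farthest to 0.10 (DTR- replicate 2 left out), 0.12 (DTR+ replicate 1) or 0.35 (DTR- replicate 1). In MHCII- cells 35 were above 0, as were 61.2% of all genes. The unadjusted p was under 0.05 for 4 members and for 1.39% of all genes. The member median was 0.29 (all genes 0.03). That median was 0.15 if DTR+ replicate 1 was dropped and 0.44 if DTR+ replicate 2 was. With array weights 1 member passed and was higher, where 0.759% of all genes passed. The smallest p-values were those of 3 genes: Mx1, the interferon-induced GTPase, differed by 0.81 ± 0.35, Ifit1 by 0.61 and Mx2 by 0.72, all with an adjusted p of 1.0. Ifit1 read 9.90 and 9.39 in DTR+ and 9.22 and 8.83 in DTR- MHCII- cells, without overlap. That was so for 27 of the 36 members and for 45.3% of all tested genes.

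Whether the genotype difference depends on set or subset was tested directly. In the 4 such comparisons within the timed sets, 0 members passed in limma, where 0% of all genes passed. The largest count at an unadjusted p under 0.05 was 16, for MHCII+ cells at 24 h against 8 h, where 11.9% of all genes were under it, with a median difference of 0.48; Stat2 was at 1.11 ± 0.24 (adjusted p = 0.098). The other counts were 1 and 2 for MHCII+ against MHCII- cells at 24 h and 8 h, and 4 for MHCII- cells at 24 h against 8 h, where the shares of all genes were 9.14%, 7.73% and 4.86%. A pair of comparisons with the set without a DT time was added after its direction was seen. The DTR+ minus DTR- difference was higher at 24 h than with no DT time for 10 members, where 4.89% of all genes were higher, with a median of 0.74; Mx2 (1.88), Oas2 (1.64), Cmpk2 (1.50) and Ddx58 (1.2) were the largest. It was higher at 8 h than with no DT time for 4 members, Oas2, Ddx58, Sp100 and Oasl2, where 3.77% of all genes were higher, with a median of 0.29. Both use the same 4 arrays with no DT time, and these sets also differ in age and, for the 8 h set, gate. For 24 h fewer members passed without 24 h DTR+ MHCII+ replicate 5. For 8 h fewer passed without any 1 of the 4 arrays with no DT time. Without 8 h DTR+ MHCII+ replicate 3, 1 member passed for 24 h against 8 h in MHCII+ cells, where 55 of 11074 genes passed.

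Between MHCII+ and MHCII- cells, members passed in 1 of 8 comparisons. At day 0 in DTR- cells 3 of 36 members were lower in MHCII+ cells and 0 higher, where 10.6% of all genes were lower and 8.44% higher. The member median was -0.28, with -0.68 without MHCII- replicate 2, 0.18 without MHCII- replicate 1, -0.48 without MHCII+ replicate 1 and -0.08 without MHCII+ replicate 2. Eif2ak2 read 8.64 and 8.27 in MHCII+ and 9.65 and 9.10 in MHCII- cells (-0.92 ± 0.24; limma, adjusted p = 0.0068), and Siglec1 (-0.69, adjusted p = 0.021) and Trim30a (-0.37, adjusted p = 0.027) were lower too. That count was lower without MHCII+ replicate 2 and higher without MHCII+ replicate 1 or MHCII- replicate 2. In the other 7 subset comparisons 0 members passed in limma, with 0 to 4 at an unadjusted p under 0.05, as were 6.97% to 24.6% of all genes. The shares of all genes that passed were 2.45% at day 1, 2.12% at day 4, 5.23% at 24 h and 2.21% at 8 h in DTR- cells, and 2.26% at day 1, 1.37% at 24 h and 7.98% at 8 h in DTR+ cells. Siglec1 had the smallest p at day 1 (0.37 in DTR- and 0.39 in DTR+ cells) and at 24 h in DTR- cells (-0.47, adjusted p = 0.094). Trim25 had it at day 4 (0.31), Adar at 8 h in DTR- cells (0.23) and Dtx3l at 24 h in DTR+ cells (0.23). At 8 h in DTR+ cells Ifi205 read 12.48, 11.04 and 11.60 in MHCII+ and 10.71, 10.19 and 10.76 in MHCII- cells, a difference of 1.15 ± 0.42 (limma, adjusted p = 0.086). These arrays did not overlap in the 8 h DTR+ subset comparison, as for 6 of the 36 members and 25.9% of all tested genes. The MHCII+ array at 12.48 was replicate 1, which had the high T cell mean, and its part in the difference was not tested. Without MHCII+ replicate 3, 2 members passed in that comparison, where 1507 of 11074 genes passed. At 24 h in DTR- cells 1 member passed without MHCII+ replicate 2 or 4, where 993 and 1352 genes passed.

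The genes upstream of the members were measured on the same arrays. The receptor chains were bright in all groups, Ifnar1 at 10.94 to 11.69 and Ifnar2 at 11.58 to 12.31. Of the interferon ligands 13 of 16 were measured and 2 reached the filter, Ifna5 (8.17 to 9.05) and Ifnz (7.55 to 8.43), while Ifnb1 stayed at 6.03 to 6.62; none of the 2 tested passed in the time or genotype comparisons described above. Of 18 genes that induce interferon, 7 rose and 1 fell from day 1 to day 4 in MHCII+ cells, and 6 rose and 1 fell in MHCII- cells. Over all genes 7.77% rose and 7.61% fell in MHCII+ cells, and 16.9% rose and 7.31% fell in MHCII- cells. Tlr3, a receptor for double-stranded RNA, rose by 1.10 and 1.63, Tlr7 by 0.96 and 0.76, and Irf8, a transcription factor of macrophages, by 0.95 and 0.93. The GBP and IRG genes rose in 6 of 9 and 4 of 9, with Gbp3 at 1.36 in MHCII+ and Iigp1 at 2.18 in MHCII- cells.

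The first day of injury differed from that. From day 0 to day 1 the induction genes fell in 8 of 18 and rose in 1 in MHCII+ cells, where 17.0% of all genes fell and 18.6% rose. In MHCII- cells they fell in 5 and rose in 2, where 16.2% of all genes fell and 9.4% rose. Irf1, which is raised by interferon gamma, fell by 1.92 ± 0.24 in MHCII+ cells (limma, adjusted p = 2.1e-07) and fell by 1.99 ± 0.24 in MHCII- cells (adjusted p = 7.3e-08). In MHCII+ cells Gbp2b (-2.17) and Gbp3 (-1.52) were lower and Ikbke, a kinase that activates interferon regulatory factors, was higher by 1.83. In MHCII- cells Iigp1 (-2.81), Tlr3 (-1.41) and Tlr7 (-0.88) were lower. From day 0 to day 7 with no DT time 4 of the 18 induction genes rose and 2 fell, and of 9 receptor and kinase genes 2 rose and 2 fell (median -0.34), where 10.4% of all genes rose and 8.72% fell. Irf8 rose by 1.16, Tlr7 by 1.08, Ikbke by 1.31 and Ifnar2 by 0.53, whereas Socs1 (-0.58), Ptpn2 (-0.51), Irf2 (-0.40) and Myd88 (-0.40) were lower.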

How the data were processed

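The authors deposited linear intensities, 1 for each probe set and array. The tools named are Affymetrix Power Tools and, for summarization, RMA, per the submitters' processing notes, with no version given. They were converted to log2 here, since the deposited scale was linear; they ran from 9.43 to 24649, with array medians of 174.7 to 203.7. Of 24922 probe sets, 21425 had 1 symbol, 1399 several and 2098 none. Symbols came from the platform annotation given with the series. For arrays, the number of samples and not depth limits the precision.

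Groups came from the sample titles. Differences were tested with limma 3.58.1 in R 4.3.3, with 1 mean for each of 18 groups over 45 arrays (27 residual degrees of freedom), an intensity trend, and Benjamini-Hochberg adjustment over 11074 genes in each comparison; an adjusted p under 0.05 passed, and rose or fell is used of such changes. The spread is thus shared across sets. Errors in text are SE for differences and SD for group means. The steps were tested on simulated data. Tables and plots used Python 3.11.15 with pandas 2.3.3, numpy 2.4.6 and matplotlib 3.10.9.

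The members, lists and comparisons were chosen with earlier results of these data known. Named members were 8 core genes in all groups (Isg15 could not be given), those that passed in a comparison (the 4 largest in each direction where more than 8 passed, with their values, and up to 3 with the smallest p where none passed), the brightest and dimmest members, up to 4 other interferon pathway genes per comparison and the 8 most alike genes; other names are marked. Replicate numbers paired the samples in 1 comparison, 8 h DTR- MHCII+ against MHCII- cells, from correlations of deviations of 0.48 to 0.58 for the 3 shared numbers; the labels do not state a pairing. Alternatives were the filter, arrays in the fit, array weights, normalization, trend, pseudocount, probe set rule, replicate block, each array left out and the day 7 set used.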

Additional observations from a re-analysis of the deposited data

Results flagged for a closer look

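The 36 members and their score were checked in the 2 groups of 4 arrays, 74 checks in all. In 4 of them 1 array lay far from the others, and chance gives this in about 1 in 20 groups. All 4 were in 24 h DTR- MHCII+ cells. Replicate 3 had Irf7 at log2 11.14 where the other arrays read 11.60 to 11.63, and replicate 4 had Ifit1 at 10.40 where they read 10.87 to 10.92. Replicate 2 was high, with Mx2 at 8.60 against 7.43 to 7.62 and Rsad2 at 11.59 against 11.13 to 11.15.

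The DTR+ minus DTR- difference in day 7 MHCII+ cells differed between the set with DT for 24 h and that with no DT time for 10 members in limma: Mx2 by 1.88, Oas2 by 1.64, Cmpk2 by 1.50, Ddx58 by 1.2, Siglec1 by 1.15, Ifit1 by 1.15, Rtp4 by 1.08, Oasl2 by 0.99, Sp100 by 0.92 and Trim30a by 0.76 log2. Between the set with DT for 8 h and that with no DT time it differed for Oas2 by 1.16, Ddx58 by 0.86, Sp100 by 0.83 and Oasl2 by 0.73. These comparisons were added after the direction in the set with no DT time was seen, and set, age and gate cannot be told apart in them.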

How the results depend on the processing

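The counts of members that passed kept within 1.5 times, in all 28 comparisons, with log2(value + 16), the mean of a gene's probe sets, no filter, a stricter filter and no trend. With quantile normalization 1 count moved, the 24 h minus 8 h genotype difference in MHCII+ cells, to 1, where 5 of 11074 genes passed. The next counts have the share of all genes that passed in parentheses. A fit on the compared groups alone gave 30 (35.4%) for genotype with no DT time and 1 (15%) for the day 0 subsets. It gave 2 (37.6%) for day 1 against day 0 in MHCII- cells. For day 4 against day 1 it gave 14 (18.7%) in MHCII+ and 22 (50.3%) in MHCII- cells. For day 7 against day 4 in MHCII- cells it gave 7 (2.68%). The 24 h and 8 h genotype differences minus that with no DT time gave 16 (4.56%) and 11 (13.5%). Array weights gave, for genotype in MHCII- cells, 16 (37.5%) at 24 h, 8 (34.1%) at 8 h and 1 (0.759%) at day 1. For genotype with no DT time they gave 24 (40.3%). For DTR- subsets they gave 1 (11.7%) at day 1 and 1 (10.3%) at 8 h. For DTR+ subsets they gave 1 (9.78%) at day 1 and 1 (9.08%) at 8 h. In MHCII- cells day 1 against day 0 gave 14 (45.8%), day 4 against day 1 gave 23 (55.4%) and day 7 against day 4 gave 24 (36.1%). The genotype difference gave 12 (38.4%) for 24 h minus 8 h in MHCII- cells and 7 (20%) for 8 h minus no DT time. A fit without the 4 day 0 arrays was chosen after seeing the data. It gave 16 (11.7%) for genotype with no DT time and 1 (0.0361%) for genotype at 24 h in MHCII- cells. It gave 1 (7.7%) for the 8 h DTR+ subsets and 1 (1.04%) for day 7 against day 4 in MHCII- cells. For 24 h minus no DT time it gave 18 (7.43%). Taking the 8 h set as day 7 gave 3 lower against day 4 in MHCII+ cells, where 1790 of 11074 genes passed. The set with no DT time gave 1 higher, where 352 of 11074 did. The replicate block gave 5 for the day 0 subsets, where 2111 of 11074 genes passed, and 1 for the 24 h DTR- subsets, where 1480 did. The numbers are not known to pair arrays in these 2 comparisons. In the paired 8 h DTR- subsets the block gave 0 as before, and it moved no other count.

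Leaving out 1 array at a time gave 2 to 4 for genotype with no DT time, 0 to 17 for the day 0 subsets, 3 to 9 and 2 to 13 for day 1 against day 0 (MHCII+ and MHCII-), 3 to 7 for day 4 against day 1 in MHCII+ cells, 10 to 29 for day 7 with no DT time against day 0, 6 to 14 and 2 to 4 for the 24 h and 8 h differences minus no DT time, 0 to 1 for 24 h minus 8 h in MHCII+ cells, for the 24 h DTR- subsets and for genotype at 8 h in MHCII+ cells, and 0 to 2 for the 8 h DTR+ subsets. Named members changed sign in 4 cases: Bst2 between 24 h DTR+ subsets with array weights (0.01), Trim25 between genotypes at 8 h in MHCII- cells with the block (-0.12), Bst2 from day 4 to day 7 with the 8 h set (0.12), and Zbp1 from day 0 to day 1 in MHCII- cells without day 0 replicate 2 (-0.019; 1.597 without replicate 1). Causes were not tested. With 2 arrays in most groups, a p that misses the threshold does not show that groups are alike.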
